A study of Mus musculus with 8 samples.

Results

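The chemokine ligands and receptors of mouse liver were described from RNA sequencing of whole liver. Members were the rows of the FPKM table whose gene name begins with Ccl, Cxcl, Cx3cl, Xcl, Ccr, Cxcr, Cx3cr or Xcr followed directly by a digit. This gave 57 rows and 55 gene names of 23906 in the table, namely 36 ligands (21 of the CC class, 13 of the CXC class, 1 CX3C and 1 XC) and 19 receptors. Ccl3 and Ccl19 had 2 rows each, and the row with the higher sum was used. No member shared its values with another name. FPKM counts fragments relative to transcript length and to the mapped fragments of the library, so levels can be set side by side between genes.

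The study compared 4 groups of male C57Bl/6J mice with 2 libraries each, 8 in all. The groups were wild-type mice left untreated, wild-type mice given LPS, ApoE-Cyp7a1 transgenic mice left untreated and ApoE-Cyp7a1 transgenic mice given LPS. LPS, bacterial lipopolysaccharide, was injected each day at 1.5 mg/kg for 7 days, while the sources used here do not say whether untreated mice received a vehicle. The transgene, described in the labels as specific to liver, adds Cyp7a1, which catalyses the first and limiting step from cholesterol to bile acids. Replicates were described as biological, and the p-values measure the spread between 2 libraries a group.

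Chemokines are small secreted or membrane-bound proteins that bind membrane-spanning receptors coupled to inhibitory G proteins, and direct the movement of leukocytes along a gradient. One receptor usually binds several ligands, and one ligand often binds several receptors. In liver, hepatocytes, sinusoidal endothelial cells, stellate cells and Kupffer cells, the resident macrophages, are known sources of ligands, while most of the receptors are carried by blood and resident leukocytes.

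To show how ligand genes on 1 chromosome differ in sequence before their start sites, the 170 bases before the start of 5 CXC ligands on chromosome 5 are printed. Cxcl1, Cxcl2 and Cxcl3 are neutrophil attractants in 1 cluster, Cxcl10 is an interferon-inducible ligand of Cxcr3, and Cxcl13, a B cell attractant, is the member with the largest change under LPS. Sequences run 5′ to 3′ on the strand of the gene and are from RefSeq, build GRCm38.p6: Cxcl1 at chr5:90891075-90891244 (+), Cxcl2 at chr5:90903729-90903898 (+), Cxcl3 at chr5:90785931-90786100 (+), Cxcl10 at chr5:92348890-92349059 (-) and Cxcl13 at chr5:95956769-95956938 (+). Capitals mark matches on either strand to GGGNNNTTCC, a form of the motif bound by NF-kB, the factor activated by LPS signalling.
Cxcl1: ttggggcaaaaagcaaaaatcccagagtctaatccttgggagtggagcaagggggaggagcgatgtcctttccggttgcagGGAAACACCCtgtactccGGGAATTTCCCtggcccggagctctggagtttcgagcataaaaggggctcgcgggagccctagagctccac
Cxcl2: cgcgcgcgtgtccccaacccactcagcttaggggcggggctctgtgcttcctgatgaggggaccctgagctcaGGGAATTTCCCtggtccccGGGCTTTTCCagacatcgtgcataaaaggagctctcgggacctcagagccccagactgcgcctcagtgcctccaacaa
Cxcl3: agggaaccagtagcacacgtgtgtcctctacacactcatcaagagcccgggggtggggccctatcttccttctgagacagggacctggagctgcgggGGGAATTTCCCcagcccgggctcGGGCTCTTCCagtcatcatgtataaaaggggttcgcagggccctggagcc
Cxcl10: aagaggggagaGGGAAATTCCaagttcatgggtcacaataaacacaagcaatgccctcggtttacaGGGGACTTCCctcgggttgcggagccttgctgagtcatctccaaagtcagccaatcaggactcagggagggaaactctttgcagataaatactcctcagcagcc
Cxcl13: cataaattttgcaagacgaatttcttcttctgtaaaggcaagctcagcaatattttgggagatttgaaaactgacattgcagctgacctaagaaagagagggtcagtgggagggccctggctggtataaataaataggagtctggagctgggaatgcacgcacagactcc

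The printed bases of Cxcl1, Cxcl2 and Cxcl3 held 3 matches each, of which 2 overlap on opposite strands, those of Cxcl10 held 2, and those of Cxcl13 held 0. A row in the promoter table was found for 40 of the 55 members. Those without one included Ccl2, Ccl4, Ccl5, Ccl7, Ccl11, Ccl24, Ccl26, Cxcl5, Cxcl11, Cxcl16, Cxcl17, Ccr7, Ccr10 and Cxcr5. Where a gene had several rows, only the first is counted here, and a further row of Ccr6 also held an NF-kB match. Within 250 bases before the start, on both strands, GGGNNNTTCC was found in 8 of these 40 (Ccl1, Ccl9, Ccl20, Cxcl1, Cxcl2, Cxcl3, Cxcl10 and Ccr3) and in 4.6% of 27025 promoters. It was found in 0 of the 9 members with a row that rose under LPS averaged over genotypes (Ccl6, Ccl8, Ccl17, Cxcl9, Cxcl13, Cxcl14, Ccr2, Cx3cr1 and Cxcr4). Of the same 40 members, the ISRE letters GAAANNGAAA of interferon-response elements were found in 3 (3.04% of promoters), the GAS letters TTCNNNGAA bound by STAT factors in 4 (7.18%), the AP-1 letters TGANTCA in 4 (6.87%) and TATAAA in 11 (13%). A match describes letters only, and a window without one says nothing of the factor.

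Libraries of the LPS groups differed from untreated ones in much more than chemokines. The hepatocyte marker genes summed to between 15226 and 24581 FPKM in untreated and between 13245 and 16798 FPKM in LPS livers, which fits the tissue label. Cyp7a1 lay between 64.7 and 78.5 FPKM in the transgenic and between 19.9 and 49.1 FPKM in the wild-type libraries. Summed markers of monocytes and macrophages went from a range of 133.5 to 183.9 FPKM untreated to a range of 721 to 844 FPKM with LPS, and those of neutrophils from 4.21 to 10.5 FPKM to 192 to 373 FPKM. Acinar pancreas markers summed to between 52.0 and 3845 FPKM in the untreated libraries and between 2.15 and 135 FPKM in the LPS libraries, and their part in the results was not tested. In whole liver, a change in the number of cells of a type and a change in RNA per cell cannot be told apart.

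Of the 55 members, 6 were at 0 in all libraries (Ccl1, Ccl20, Ccl26, Ccl27b, Cxcl15 and Ccr8), which in these values is a listing and not a proof of absence. A further 28 had a value but did not reach 1 FPKM in 2 of the 8 libraries, the filter set for the tests. The other 21 (17 ligands and 4 receptors) were tested. Of these, 14 reached 1 FPKM in at least 2 untreated libraries. The remaining 7 (Ccl3, Ccl8, Ccl17, Cxcl14, Ccr2, Cx3cr1 and Cxcr4) passed the filter only through LPS libraries and so had to be higher there. Ccl24 passed it only through untreated libraries and so had to be lower with LPS.

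**Figure D1:**
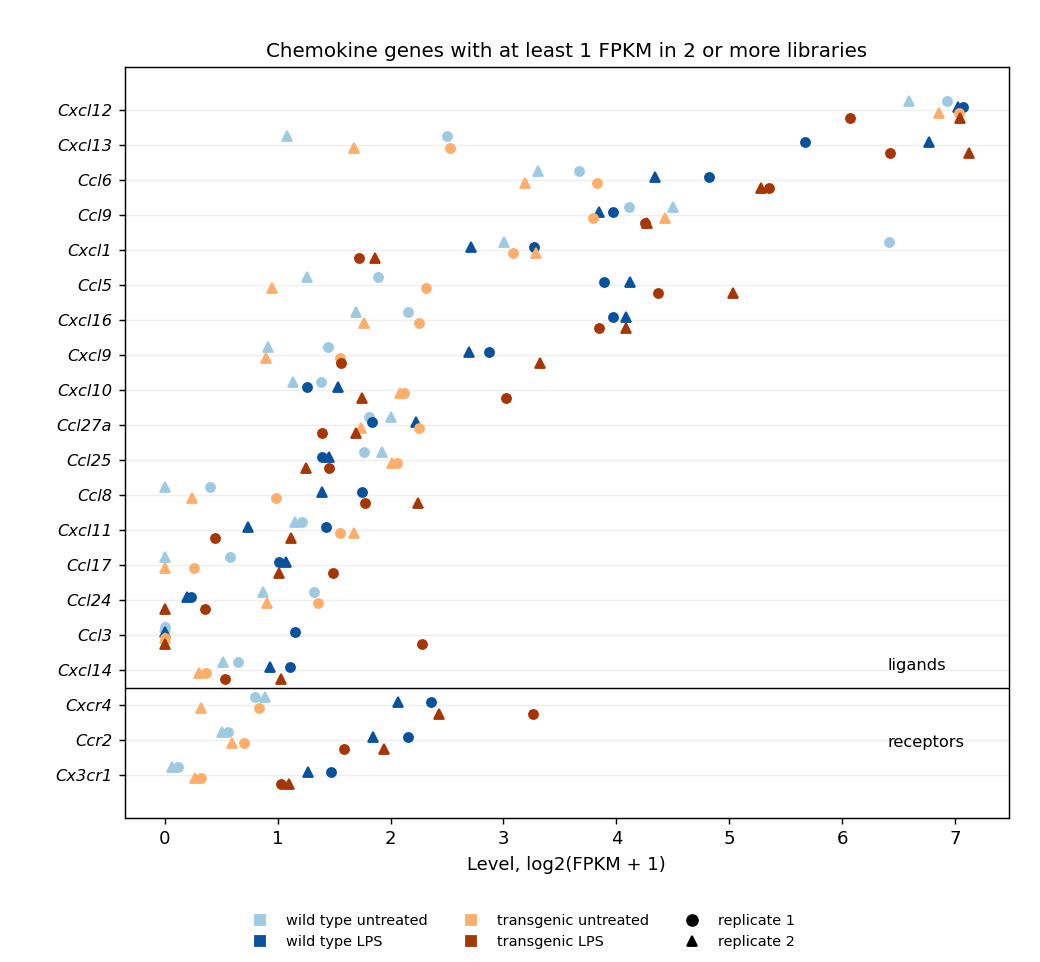
Level of 20 tested chemokine genes in each of the 8 libraries, as log2(FPKM + 1) on the horizontal axis, with ligands above and receptors below the line, colours for the 4 groups and symbols for the replicates. Cxcl12 lies far right in all groups, while the LPS points of Cxcl13, Ccl5, Cxcl16 and Cxcr4 lie to the right of the untreated points.

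Untreated liver held 1 dominant chemokine. Cxcl12, the ligand of Cxcr4 that retains blood-forming cells in marrow, was at 121 and 95.7 FPKM in untreated wild-type and at 131 and 115 FPKM in untreated transgenic livers. It was the highest member in all 4 of these libraries and made up 46.2% to 65.2% of the summed FPKM of all members. With LPS it was at 134 and 129 FPKM in wild-type and at 66.1 and 131 FPKM in transgenic livers, so that 1 transgenic library was the lowest of the 8 and the groups overlapped. Its change averaged over genotypes was -0.05 ± 0.21 (SE, log2 scale), with an adjusted p of 0.863 in limma, and without replicate 1 of the transgenic LPS group it was 0.19. Its change in transgenic livers, -0.39 on all libraries (adjusted p = 0.37, limma), was 0.09 without LPS replicate 1 and -0.88 without LPS replicate 2. Each of these fits left 1 library in the transgenic LPS group.

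Ccl9 and Ccl6, both rodent ligands of Ccr1, were also abundant in untreated liver. Ccl9 ranged from 12.9 to 21.7 FPKM in untreated and from 13.4 to 18.3 FPKM in LPS libraries, 2 ranges that overlap. Cxcl1 was between 7.01 and 8.76 FPKM in 3 of the untreated libraries and at 84.4 FPKM in replicate 1 of untreated wild type, where it was the second most abundant member, and it was above Ccl6 in replicate 2 of untreated transgenic livers too. Ccl25, Ccl27a, Cxcl10, Cxcl11, Cxcl16 and Ccl5 were between 0.925 and 3.98 FPKM in every untreated library.

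The main question of the design was what repeated LPS did in each genotype. Changes are differences of group means of log2(FPKM + 1), which understate the change of genes at low levels. They were tested with limma and called at a Benjamini-Hochberg adjusted p under 0.05 over 11463 features. In wild-type livers 8 of the 21 tested members rose and 1 fell, where 16.2% of all features tested rose and 5.41% fell. In transgenic livers 9 rose and 2 fell, where 16% and 10.5% of all features did. Averaged over genotypes 11 rose and 2 fell, where 20.6% and 15.8% did. The median change of the 21 was 0.577 in wild-type and 0.768 in transgenic livers, against medians over all features of -0.048 and -0.041. Since 7 of the 21 passed the filter through LPS libraries alone, and Ccl24 through untreated libraries alone, these counts and medians are a description and lend no support to a rise or fall of the members. The calls of the members that passed the filter in this way are likewise a description, here and below. The 8 that rose in wild-type livers (Cxcl13, Ccl5, Cxcl16, Ccl6, Ccl8, Cxcr4, Ccr2 and Cx3cr1) were also among the 9 that rose in transgenic livers, with Ccl17 as the other one. The group means compared within each genotype come from separate libraries, while the average uses both genotypes. All comparisons share 1 estimate of the spread from all 8 libraries. A call in 1 genotype thus depends on the libraries of the other too, and the 2 sets of calls are not independent. Where a library is left out below, its group keeps 1 library, whose own spread then drops out of the fit. Calls gained in such fits are a description.

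**Figure D2:**
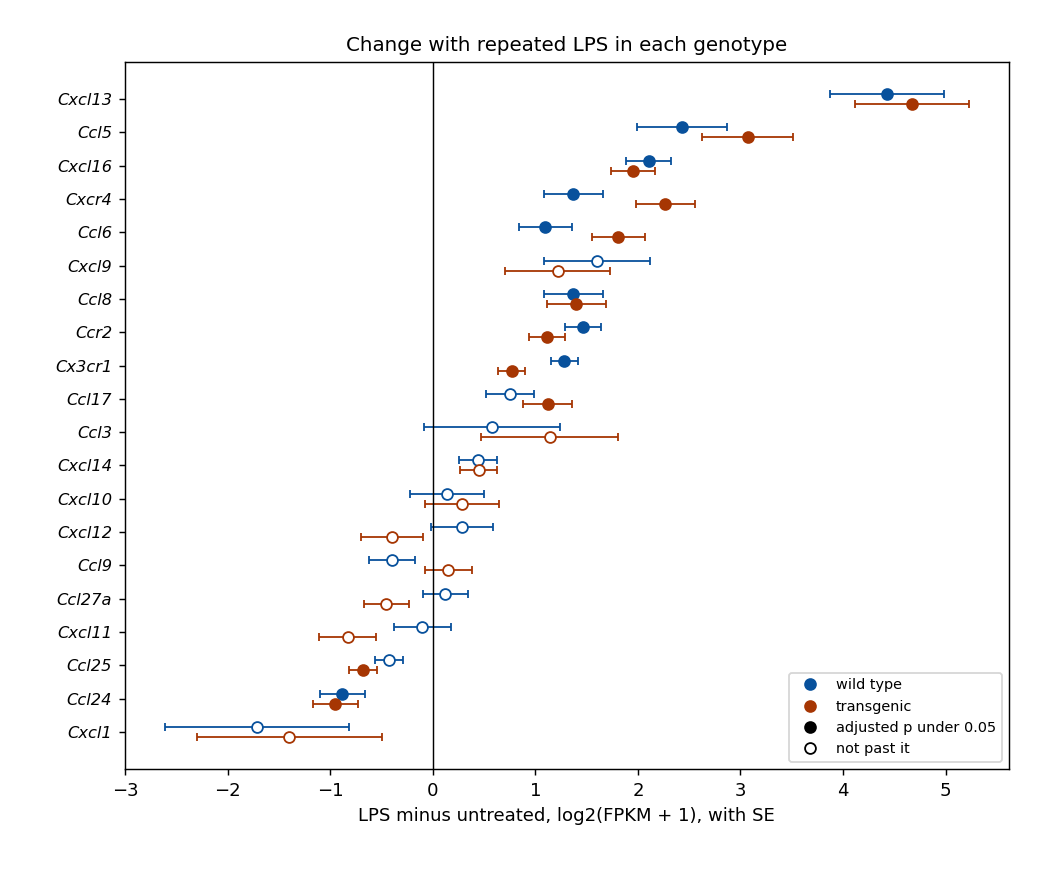
Change under LPS of 20 tested members, as the difference of group means on the log2(FPKM + 1) scale with its SE, in wild-type (blue) and transgenic (brown) livers; filled points passed an adjusted p under 0.05. Cxcl13 lies farthest right at 4.43 and 4.67, and Ccl24 lies left of 0 with filled points in both genotypes.

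Among the ligands, Cxcl13 changed most. It attracts B cells through Cxcr5 and organizes follicles in lymphoid tissue. It was at 4.66 and 1.12 FPKM in untreated and at 50.0 and 108 FPKM in LPS-treated wild-type livers, and at 4.77 and 2.2 FPKM in untreated and at 85.1 and 138 FPKM in LPS-treated transgenic livers. The lowest LPS library was above the highest untreated library. The ratio of group means was 27.4 in wild-type and 32.1 in transgenic livers. The log2 change was 4.43 ± 0.55 (SE, adjusted p = 0.0011, limma) and 4.67 ± 0.55 (adjusted p = 0.00108, limma). In both transgenic LPS libraries it replaced Cxcl12 as the most abundant member, with 28.2% and 33.3% of the summed FPKM of members. In the wild-type LPS libraries Cxcl12 stayed first, at 44.1% and 37.9%, with Cxcl13 second at 16.5% and 31.8%.

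Ccl5, which attracts T cells and monocytes through Ccr1 and Ccr3, among other receptors, was at 2.70 and 1.40 FPKM in untreated and at 13.8 and 16.4 FPKM in LPS-treated wild-type livers. In transgenic livers it was at 3.98 and 0.925 FPKM untreated and at 19.7 and 31.8 FPKM with LPS. Both genotypes separated without overlap, and the untreated replicate 1 of each genotype was above its replicate 2. The change was 2.43 ± 0.44 (SE, adjusted p = 0.00654, limma) in wild-type and 3.07 ± 0.44 (adjusted p = 0.00254, limma) in transgenic livers.

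Cxcl16, a membrane-bound ligand of Cxcr6 that also acts as a scavenger receptor, had similar values in its LPS libraries. It was at 3.44 and 2.24 FPKM in untreated and 14.7 and 16.0 FPKM in LPS-treated wild-type livers, and at 3.77 and 2.40 against 13.3 and 15.9 FPKM in transgenic livers. The lowest LPS library was above 3 times the highest untreated one. The change was 2.11 ± 0.22 (SE, adjusted p = 0.000497, limma) and 1.95 ± 0.22 (adjusted p = 0.000856, limma).

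Ccl6 was already abundant before LPS. Its wild-type values were 11.7 and 8.89 FPKM untreated and 27.3 and 19.3 FPKM with LPS, and its transgenic values were 13.2 and 8.14 FPKM untreated and 39.8 and 38.0 FPKM with LPS. All LPS libraries were above all untreated ones, and both transgenic LPS libraries were above both wild-type LPS libraries. That difference between genotypes did not pass (adjusted p = 0.365, limma), and the share of all features so separated was not counted. The change was 1.10 ± 0.26 (SE, adjusted p = 0.0201, limma) in wild-type and 1.81 ± 0.26 (adjusted p = 0.00238, limma) in transgenic livers. The wild-type call was lost without untreated replicate 2 (0.91) or without LPS replicate 1 (0.86). Its neighbour on chromosome 11 and fellow ligand of Ccr1, Ccl9, gave -0.40 and 0.15 with adjusted p-values of 0.251 and 0.667 in limma. Without both untreated libraries numbered 1, which left 1 library in each untreated group, the change of Ccl9 was -0.59 in wild-type livers and -0.38 in the average. Ccl9 lies at chr11:83572919-83578636 and Ccl6 at chr11:83587882-83593087 in GRCm38 (mm10).

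Ccl8, an agonist of Ccr8 in mice, was at 0.318 and 0 FPKM in untreated and 2.36 and 1.62 FPKM in LPS-treated wild-type livers, and at 0.974 and 0.182 against 2.41 and 3.74 FPKM in transgenic livers. The groups did not overlap. The change was 1.37 ± 0.29 (SE, adjusted p = 0.0129, limma) and 1.40 ± 0.29 (adjusted p = 0.0118, limma). The wild-type call was lost without untreated replicate 2 (1.17) or LPS replicate 1 (1.19), and the transgenic call without untreated replicate 2 (1.03) or with a pseudocount of 0.1 (2.50 on that scale, adjusted p = 0.055, limma). Ccl17, a ligand of Ccr4 made by dendritic cells, was at most 0.493 FPKM in untreated and between 1.01 and 1.80 FPKM in LPS libraries. It passed in transgenic livers (1.12 ± 0.24 SE, adjusted p = 0.0126, limma) and not in wild-type livers (0.75 ± 0.24 SE, adjusted p = 0.0583, limma). The interaction was 0.37 with an adjusted p of 0.724 in limma. The transgenic call was lost without untreated replicate 2 (0.99) or LPS replicate 1 (0.88), or after quantile normalization (0.80). The averaged call was also lost after quantile normalization (0.57).

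The wild-type change of Ccl17 was 1.04 and past the threshold without wild-type untreated replicate 1 or without both untreated libraries numbered 1. It was also past it, at 0.75, without either transgenic LPS library. These fits left 1 library in a group. With a replicate block on all libraries it passed too (adjusted p = 0.0238, limma). Ccl27a, a ligand of Ccr10 known from skin, ranged from 2.34 to 3.75 FPKM in untreated and from 1.62 to 3.66 FPKM in LPS libraries and did not pass in either genotype. Its near copy Ccl27b was at 0 in all libraries, and how the authors' counting divided reads between the copies is not known.

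Of the 3 interferon-inducible ligands of Cxcr3, the receptor of activated T and NK cells, 1 passed on all libraries, in the average over genotypes alone. Cxcl9 was between 0.863 and 1.92 FPKM in the 4 untreated libraries, at 6.30 and 5.48 FPKM in wild-type LPS libraries, and at 1.94 and 8.98 FPKM in transgenic LPS libraries. Its lowest LPS library barely passed the highest untreated one. The averaged change of Cxcl9 passed (1.41 ± 0.37 SE, adjusted p = 0.0196, limma), a call lost without wild-type untreated replicate 2 (1.28), either wild-type LPS library (1.37 without replicate 1, 1.45 without replicate 2) or transgenic untreated replicate 2 (1.25). The wild-type change of Cxcl9, 1.60, missed the threshold on all libraries (adjusted p = 0.0644, limma) and passed in a fit of the compared groups alone (adjusted p = 0.00451, limma) or without either transgenic LPS library (adjusted p = 0.00714 and 0.00702, limma). The transgenic change of Cxcl9, 1.22 on all libraries, also passed without LPS replicate 1 (adjusted p = 0.0102, limma). The averaged change missed the threshold without both untreated libraries numbered 1 (1.71, adjusted p = 0.0567, limma). Cxcl10 averaged 0.21 ± 0.25 (SE, adjusted p = 0.543, limma), and Cxcl11 averaged -0.47 with an adjusted p of 0.0994 in limma. The averaged value of Cxcl10 was -0.11 without transgenic LPS replicate 1, and 0.53 and past the threshold without replicate 2, where the transgenic change was 0.92. The averaged change of Cxcl11 passed without wild-type LPS replicate 1 (-0.64), without transgenic LPS replicate 2 (-0.64) or after quantile normalization (-0.82), and its transgenic change passed under the last 2 of these (-1.17 and -1.07). The 3 genes are neighbours on chromosome 5, between positions 92321347 and 92365485 of GRCm38.

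Cxcl14, an attractant made by many epithelia, was between 0.235 and 0.570 FPKM in untreated libraries and at 1.16, 0.910, 0.446 and 1.04 FPKM in LPS libraries, which overlap. It passed in the average over genotypes alone (0.44 ± 0.13 SE, adjusted p = 0.031, limma). That value was -0.03 after quantile normalization, and the call was lost without any 1 of wild-type untreated replicate 2, wild-type LPS replicate 2 or either untreated transgenic library (0.41 to 0.49). Its transgenic change was 0.69 and past the threshold without transgenic LPS replicate 1, a fit with 1 library in that group.

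Of the ligands, Ccl24 and Ccl25 were lower with LPS. Ccl24, or eotaxin-2, attracts eosinophils through Ccr3. It was at 1.49 and 0.830 FPKM in untreated and 0.172 and 0.143 FPKM in LPS-treated wild-type livers, and at 1.55 and 0.867 FPKM in untreated and 0.277 and 0 FPKM in LPS-treated transgenic livers. The LPS libraries were all below the untreated ones. The change was -0.88 ± 0.22 (SE, adjusted p = 0.0263, limma) in wild-type and -0.95 ± 0.22 (adjusted p = 0.0184, limma) in transgenic livers. The wild-type call was lost without either wild-type LPS library (-0.90 and -0.87), and the transgenic call without transgenic LPS replicate 2 (-0.77).

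Ccl25, the thymus and gut ligand of Ccr9, was at 2.39 and 2.80 FPKM in untreated and 1.62 and 1.74 FPKM in LPS-treated wild-type livers, and at 3.16 and 3.03 against 1.75 and 1.38 FPKM in transgenic livers. Again no LPS library reached an untreated one. The fall passed in transgenic livers (-0.68 ± 0.14 SE, adjusted p = 0.0106, limma) and in the average (-0.55 ± 0.10 SE, adjusted p = 0.00355, limma), and missed the threshold in wild-type livers (-0.42, adjusted p = 0.0647, limma), where it passed after quantile normalization (-0.77, adjusted p = 0.00905, limma). The transgenic call was lost without either untreated transgenic library (-0.66 and -0.70).

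Cxcl1, a neutrophil attractant of the liver acute phase, was at 84.4 and 7.01 FPKM in untreated and 8.67 and 5.57 FPKM in LPS-treated wild-type livers, and at 7.50 and 8.76 FPKM in untreated and 2.30 and 2.62 FPKM in LPS-treated transgenic livers. One wild-type library stood more than 9 times above the other 7, and both transgenic LPS libraries were the lowest of all. Cxcl1 did not pass in any contrast on all libraries, with an averaged change of -1.56 ± 0.63 (SE, adjusted p = 0.0919, limma). Without replicate 1 of untreated wild type the averaged change was -0.70. Without that library the change was -0.01 in wild-type livers and -1.40 in transgenic livers. Without replicate 2 of untreated wild type, the averaged change was -2.41 and the wild-type change -3.42, with the transgenic change at -1.40. Each of these fits left 1 library in untreated wild type, so the wide difference between its replicates no longer entered the spread. Calls in them therefore lend no support to a fall of Cxcl1. In a fit of the compared groups alone the transgenic change passed (adjusted p = 0.00373, limma).

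Among the receptors tested, Cxcr4, Ccr2 and Cx3cr1 were called higher in each genotype, where 16.2% and 16% of all features tested were. All 3 passed the filter only through LPS libraries, so their number is a description. Cxcr4, the receptor of Cxcl12 on most leukocytes, was at 0.738 and 0.849 FPKM in untreated and 4.14 and 3.17 FPKM in LPS-treated wild-type livers. In transgenic livers it was at 0.783 and 0.249 FPKM untreated and at 8.61 and 4.38 FPKM with LPS. The LPS and untreated libraries did not overlap, and the transgenic LPS libraries were both above the wild-type ones. That difference between genotypes did not pass (0.63, adjusted p = 0.424, limma), and the share of all features so separated was not counted. The change was 1.37 ± 0.29 (SE, adjusted p = 0.0129, limma) and 2.27 ± 0.29 (adjusted p = 0.00148, limma), and the interaction was 0.90 with an adjusted p of 0.497 in limma. The wild-type call was lost without untreated replicate 2 (1.41) or LPS replicate 1 (1.22).

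Ccr2, which brings inflammatory monocytes from marrow to tissue, was at 0.477 and 0.423 FPKM in untreated and 3.46 and 2.58 FPKM in LPS-treated wild-type livers, and at 0.628 and 0.512 against 2.00 and 2.83 FPKM in transgenic livers. The change was 1.46 ± 0.17 (SE, adjusted p = 0.000816, limma) and 1.11 ± 0.17 (adjusted p = 0.00345, limma).

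Cx3cr1, the receptor of fractalkine (Cx3cl1) on monocytes and some macrophages, was at 0.0822 and 0.0423 FPKM in untreated and 1.78 and 1.40 FPKM in LPS-treated wild-type livers, and at 0.248 and 0.205 against 1.04 and 1.14 FPKM in transgenic livers. Transgenic libraries were above wild-type ones without LPS and below them with LPS. The change was 1.28 ± 0.13 (SE, adjusted p = 0.000477, limma) in wild-type and 0.77 ± 0.13 (adjusted p = 0.00554, limma) in transgenic livers. The transgenic call was lost after quantile normalization (0.31, adjusted p = 0.117, limma).

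The members under the filter were also fitted without it, together with all 17294 features that had a value. Of the 49 members with a value, 21 rose and 2 fell in the average over genotypes, where 18.5% and 9.39% of all features did. The receptors gave 11 of the 18 with a value, and the ligands 10 of 31. In wild-type livers 15 rose and 1 fell (background 13.1% and 3.06%), and in transgenic livers 12 rose and 2 fell (12.4% and 5.33%). All 4 LPS libraries lay above all 4 untreated libraries for 20 of the 49, against 19.4% of all features with a value, and below them for 2, against 11.5%.

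The receptors that rose in that fit besides Cxcr4, Ccr2 and Cx3cr1 were Ccr1, Ccr6, Ccr7, Ccr10, Ccr1l1, Cxcr2, Cxcr3 and Cxcr5. Cxcr2, the neutrophil receptor of Cxcl1, Cxcl2, Cxcl3 and Cxcl5, went from a range of 0.0199 to 0.197 FPKM to a range of 0.469 to 0.842 FPKM (averaged change 0.60, adjusted p = 0.00603, limma). Ccr1, on monocytes and neutrophils, went from at most 0.227 FPKM to between 0.410 and 0.774 FPKM. Ccr7, which guides naive T cells and mature dendritic cells to lymph nodes, went from at most 0.126 FPKM to between 0.364 and 0.583 FPKM, with no overlap. Cxcr5, the B cell receptor of Cxcl13, went from at most 0.122 FPKM to between 0.235 and 0.568 FPKM (averaged change 0.40, adjusted p = 0.00611, limma). Cxcr3 was at 0.149 to 0.525 FPKM untreated and 0.492 to 1.05 FPKM with LPS, which overlap. Ccr6, Ccr10 and Ccr1l1 were at most 0.341 FPKM in every library. Cxcr6, on NKT cells and resident T cells, was at 0.230 to 0.390 FPKM untreated and 0.101 to 0.268 FPKM with LPS, and did not pass (-0.12, adjusted p = 0.197, limma). Ccr3, Ccr4, Ccr9, Cxcr1 and Xcr1 were at most 0.265 FPKM in every library and did not pass in the average. Of these 5, Xcr1, a receptor of cross-presenting dendritic cells, rose in wild-type livers (0.13, adjusted p = 0.0357, limma) and was at -0.07 in transgenic livers (adjusted p = 0.182, limma). Such levels are close to 0, and with the depth unknown no counting error can be attached to them.

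The ligands that rose in that fit and not among the tested ones were Cx3cl1 and Xcl1. Cx3cl1, a membrane-bound ligand on endothelium, was at 0.247 to 0.287 FPKM in untreated and 0.393 to 0.667 FPKM in LPS libraries. Xcl1, made by NK and T cells, was at 0.171 and 0.144 FPKM in the wild-type LPS libraries and listed at 0 in the other 6. The ligands Ccl11, Ccl19, Ccl22, Ccl28, Cxcl3, Cxcl5 and Cxcl17 did not reach 1 FPKM in any library and did not pass in either genotype or in the average.

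Ligands were then matched with their receptors. The list held 36 pairs over 17 receptors. For Cxcr4 and Cxcl12, both of which were tested, the receptor rose and the ligand did not pass in each genotype on all 8 libraries. In wild-type livers the ratio of group means was 4.61 for Cxcr4 and the ligand stayed within 95.7 to 134 FPKM. For Cxcl16 and Cxcr6 the ligand went to 13.3 to 16.0 FPKM while Cxcr6 stayed under 0.4 FPKM. For Cxcl13 and Cxcr5, and for Cx3cl1 and Cx3cr1, both genes rose in the fit without a filter, with the receptor Cxcr5 under 0.6 FPKM and the ligand Cx3cl1 under 0.7 FPKM in every library. In the average of that fit Ccr1 also rose with Ccl5 and Ccl6, but not with Ccl3, Ccl7 or Ccl9. Cxcr3 rose with Cxcl9, but not with Cxcl10 or Cxcl11. The receptor alone rose for Ccr2 with Ccl2, Ccl7 and Ccl12, and for Cxcr2 with Cxcl1, Cxcl2, Cxcl3 and Cxcl5. Markers of B cells, which carry Cxcr5, summed to 0.976 to 2.71 FPKM in untreated and 10.5 to 17.1 FPKM in LPS libraries. Of the 6 markers, 5 were tested and 5 rose in each genotype, where 16.2% and 16% of all features tested rose. With untreated sums this low, markers could pass the filter through LPS libraries alone and so had to be higher there. How many did was not counted, so the count of risen markers is a description. None of the 6 was at 0 in all libraries. T cell markers summed to 2.1 to 2.46 FPKM untreated and 2.93 to 4.54 FPKM with LPS, with 1 of 7 tested (Thy1, which rose in wild-type livers). NK cell markers summed to 0.632 to 2.34 FPKM untreated and 5.89 to 8.78 FPKM with LPS. Liver endothelial markers went from 95.4 to 116 FPKM to 241 to 266 FPKM, and stellate cell and fibroblast markers from 144 to 178 FPKM to 252 to 342 FPKM. The part of these cell types in the chemokine values was not tested.

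**Figure D3:**
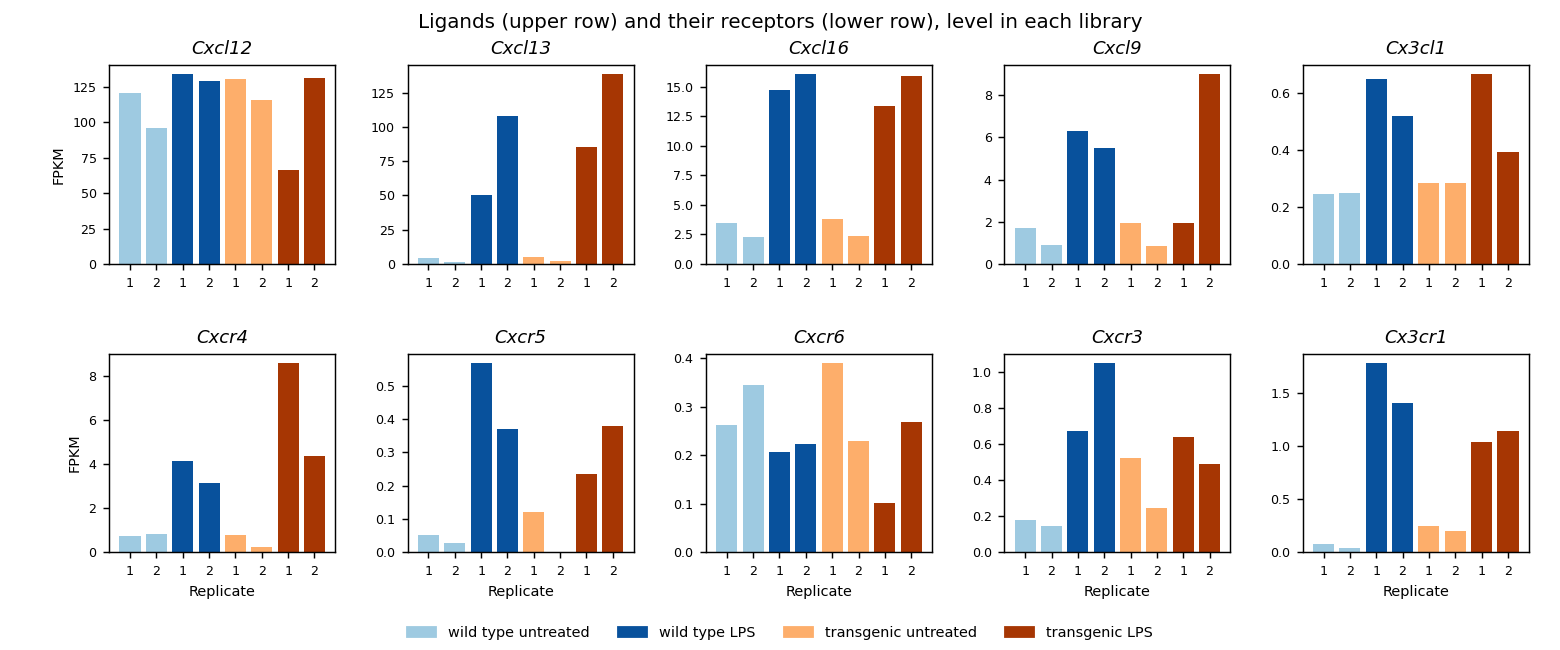
FPKM of 5 ligands (upper row) and a receptor of each (lower row) in the 8 libraries, with 1 bar per library coloured by group and a scale of its own in each panel. Cxcl12 lies between 66.1 and 134 FPKM in all groups while Cxcr4 is higher in every LPS library, and Cxcl16 rises while Cxcr6 stays under 0.4 FPKM.

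A set of ligands was far higher in 1 library than in the others. In replicate 1 of the transgenic LPS group, 6 of the 49 members with a value were at least 3 times the highest of the other 7 libraries, where 0.532% of 17294 features were, a measure chosen after the values were seen. These were Ccl2, Ccl7 and Ccl12, the monocyte attractants that bind Ccr2, with Ccl3 and Ccl4, attractants of macrophages and T cells, and Cxcl2, a neutrophil attractant. Ccl2 was at 3.84 FPKM there and at most 0.668 FPKM elsewhere, and Ccl4 was at 5.17 FPKM there and at most 0.813 FPKM elsewhere. Ccl7 was at 3.76 FPKM against at most 0.767 FPKM, Ccl12 at 1.99 FPKM against at most 0.311 FPKM, and Cxcl2 at 0.935 FPKM against at most 0.174 FPKM. The other LPS libraries held Ccl7 at 0.767, 0.420 and 0.212 FPKM, all above its highest untreated value of 0.119 FPKM. For Ccl3 the value was 3.85 FPKM, with 1.23 FPKM in replicate 1 of wild-type LPS and 0 in the other 6 libraries. The second row of Ccl3 held 1.90 and 1.28 FPKM in the transgenic LPS libraries, and how the authors' counting divided reads between the rows is not known. No other LPS library had such a member, and replicate 1 of untreated wild type had 1, Cxcl1, against 0.0983% of features.

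The CC ligands among these 6 are near relatives in clusters on chromosome 11. Reads of such similar copies could have been split by the authors' counting. Ccl2, Ccl7 and Ccl12 lie between positions 82035571 and 82103400, and Ccl3 and Ccl4 between 83647844 and 83664683, in GRCm38. Cxcl2 lies apart from them on chromosome 5. Of the 6, only Ccl3 was tested, with a change in transgenic livers of 1.14 and an adjusted p of 0.244 in limma. With both rows of Ccl3 summed it passed in transgenic livers (1.97, adjusted p = 0.025, limma) and in the average (1.47, adjusted p = 0.0146, limma). Without transgenic LPS replicate 2, which left only the high library in that group, its change was 2.28 in transgenic livers and 1.43 in the average. In the same library Cd14, the LPS co-receptor, was at 46.7 FPKM against 20.8 FPKM in its replicate, and Il1b was at 9.43 against 4.70 FPKM. The list of inducers of chemokine genes, which holds both, summed to 374 against 320 FPKM. Markers of monocytes and macrophages summed to 822 against 721 FPKM. The 6 bile duct markers summed to 29.9 against 24.1 FPKM, within their range of 23.9 to 30.5 FPKM in untreated libraries. Within that list the row shared by Krt16 and Krt19 was at 8.24 against 1.35 FPKM while Spp1 was at 15.1 against 18.7 FPKM and Sox9 at 0.629 against 2.11 FPKM. The list summed to 42.9 FPKM in wild-type LPS replicate 1, where Ccl3, Ccl4, Ccl7 and Ccl12 were second highest. In that wild-type library Ccl2 was at 0.376 FPKM, within its untreated range of 0.351 to 0.610 FPKM, and Cxcl2 was at 0. Whether these differences played a part was not tested.

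**Figure D4:**
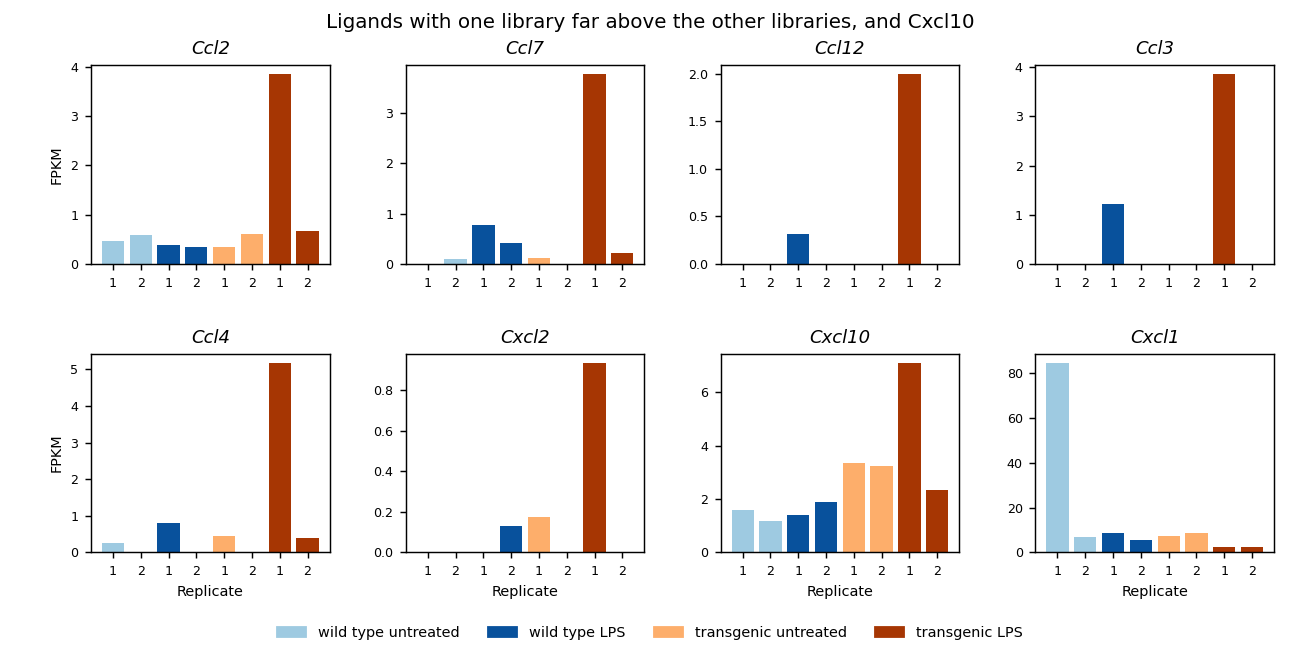
FPKM of 8 ligands in the 8 libraries, with 1 bar per library coloured by group and a scale of its own in each panel. In 7 panels, Cxcl10 included, replicate 1 of the transgenic LPS group is the highest bar, and for Cxcl1 the highest is replicate 1 of untreated wild type at 84.4 FPKM.

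The second question of the design was what the Cyp7a1 transgene did. In limma 0 of the 21 tested members were called in untreated livers (background 0.0611% of features), 0 with LPS (0%), 0 averaged over treatments (0.14%) and 0 for the interaction (0.00872%). At an unadjusted p under 0.05 there were 2, 2, 2 and 1 of the 21, where 631, 1402, 744 and 1189 of all 11463 features tested were. The members included Cxcl10 in untreated livers and in the average, Ccl6 and Cxcl10 with LPS, and Cx3cr1 for the interaction. The fit without a filter also called 0 of 49 in untreated livers, with LPS and in the average (background 0%, 0.00578% and 0%). A p that misses the threshold does not show that the genotypes were alike.

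Cxcl10 was at 1.61 and 1.19 FPKM in untreated wild-type and 3.34 and 3.24 FPKM in untreated transgenic livers, and at 1.39 and 1.90 FPKM in wild-type and 7.10 and 2.36 FPKM in transgenic livers with LPS. All 4 transgenic libraries were above all 4 wild-type ones, as for 0.829% of features tested, and Cxcl10 was the 1 tested member of which this was true. The averaged difference was 0.92 ± 0.25 (SE, adjusted p = 0.563, limma). Ccl6 was 0.73 ± 0.26 higher in transgenic livers with LPS (SE, adjusted p = 0.365, limma) and 0.02 higher without.

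Genes that act with chemokines were read from lists. Of all features tested, 16.2% rose and 5.41% fell in wild-type livers, and 16% and 10.5% did in transgenic livers. How many listed genes passed the filter through LPS libraries alone was not counted, so the list counts are a description. A list of atypical and scavenging receptors, most of which take up chemokines without G protein signalling, also held Cmklr1, a signalling receptor of chemerin that is counted in the list after it too. Of its tested genes 2 of 5 rose in wild-type and 5 of 5 in transgenic livers, with averaged changes of 1.94 for Cmklr1 and 1.22 for the row shared by Ackr1 and Cadm3, with Ccrl2 at 0.64 and Ackr3 at 0.53. Of other leukocyte attractants and their receptors, 9 of 13 rose in wild-type and 7 of 13 in transgenic livers, with the platelet chemokines Ppbp at 2.78 and Pf4 at 2.62 and the formyl peptide receptors Fpr2 at 2.69 and Fpr1 at 2.24. Of genes that signal downstream of chemokine receptors, 23 of 32 rose and 1 fell in wild-type livers and 25 rose and 0 fell in transgenic livers, with Rac2, the GTPase of blood cells, at 3.45 and Rgs2, a brake on G proteins, at 2.60.

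Of leukocyte adhesion genes, 12 of 16 rose and 1 fell in wild-type livers and 13 rose and 0 fell in transgenic livers, with the integrin chains Itgb2 at 3.68, Itgam at 3.15 and Itgal at 2.60 and the hyaluronan receptor Cd44 at 2.72. Of inducers of chemokine genes, 9 of 21 rose and 1 fell in wild-type livers and 11 rose and 0 fell in transgenic livers, with Cd14 at 2.68, the factor Irf8 at 1.98, Tlr2 at 1.94 and the cytokine Il1b at 1.62. Of proteases and glycan carriers that cut or hold chemokines, 10 of 19 rose and 1 fell in wild-type livers and 11 rose and 1 fell in transgenic livers, with Sdc3 at 2.85, Ctss at 2.27, Elane at 2.06 and Mmp8 at 1.77. The transgene contrasts called 0 genes of these 6 lists, and the interaction called 0. Markers of Kupffer cells summed to 65.5 to 128 FPKM untreated and 788 to 976 FPKM with LPS. Of them 5 of 6 rose in each genotype, and of the neutrophil markers 8 of 8, where 16.2% and 16% of all features tested rose. Markers that passed the filter through LPS libraries alone were not counted here either, so these counts are a description. How far cell numbers accounted for the lists was not tested.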

How the data were processed

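Libraries came from mRNA of frozen whole liver, prepared with a kit that keeps strand, per the labels' protocols. The deposited table holds FPKM values computed by the authors, 1 column per library. TopHat2 2.1.0, Bowtie2 2.2.6, Cufflinks, Cuffdiff 2.2.1 and build mm10 are named per the submitters' processing notes, while annotation, strand setting and filters were not given in the sources used here. Counts were not used here, so depth is unknown. Rows with identical values were joined, 17294 features had a value, and 27 names turned into dates stayed unnamed. On the scale log2(FPKM + 1), 11463 features that reached 1 FPKM in 2 or more libraries were tested, and limma 3.58.1 under R 4.3.3 fitted 4 group means with a mean-variance trend (4 residual degrees of freedom). Tests were 2-sided, in 7 contrasts, and checked on simulated data. Gene positions came from GENCODE in GRCm38, for 55 of 55 members. All members may be named, and up to 4 genes per context list, those with the largest averaged LPS change that passed. Members and lists were chosen with earlier results of these data known. Alternatives were another pseudocount (0.1), no filter or 5 FPKM, quantile and median-of-ratios scaling, robust or untrended moderation, a replicate block, only the groups compared, summed rows of a name, and leaving out libraries. Values of 1 member are not reported here, though the counts over members include it.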

Additional observations from a re-analysis of the deposited data

Results flagged for a closer look

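Cx3cr1 was higher in both untreated transgenic libraries than in both untreated wild-type ones, and lower in both transgenic LPS libraries than in both wild-type LPS ones. It was flagged by a scan of the tested members for libraries that separate in opposite directions. The share of all features with such a pattern was not counted. The LPS change in transgenic livers minus that in wild-type livers was -0.51 ± 0.19 (SE, log2 scale). It did not pass the test of the interaction over all features (unadjusted p = 0.0262, adjusted p = 0.437, limma), and untreated levels were at most 0.248 FPKM.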

How the results depend on the processing

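The depth of the libraries is unknown, which limits values near 0, and 2 libraries a group give 4 residual degrees of freedom. A fit that leaves out a library keeps 1 in that group, whose own spread then drops out. Calls and counts from such fits are a description. In all settings that could fit them, 5 of the 9 calls in wild-type livers remained (Ccl5, Ccr2, Cx3cr1, Cxcl13 and Cxcl16), 6 of 11 in transgenic livers (Ccl5, Ccl6, Ccr2, Cxcl13, Cxcl16 and Cxcr4) and 10 of 13 in the average, where Ccl17, Cxcl9 and Cxcl14 did not. Among the calls that remained, Ccl8, Ccr2, Cx3cr1 and Cxcr4 had passed the filter through LPS libraries alone, and Ccl24 through untreated libraries alone. Their directions were set by the filter, so these calls are a description. Ccl24 reached 1 FPKM only in replicate 1 of each untreated group and was not tested without either of these libraries. In the average it could be fitted in 14 of 18 settings. A filter of 5 FPKM, which tests fewer genes, left 4, 4 and 5 risen members in wild-type livers, transgenic livers and the average, with 0 fallen in each. With no filter 15 rose in wild-type livers and 21 in the average. Fallen members in wild-type livers numbered 2 after quantile normalization and 0 in a fit of the compared groups alone. Quantile normalization lowered the median change of all features in wild-type livers from -0.048 to -0.119, and the share of calls over all features that were rises from 75% to 59.5% in wild-type livers, from 60.4% to 53.8% in transgenic livers and from 56.6% to 44.8% in the average. Leaving out both untreated libraries numbered 1 gave 1 fallen member in transgenic livers. Leaving out 1 library at a time gave 5 to 10 risen and 0 to 2 fallen members in wild-type livers, 7 to 11 and 0 to 3 in transgenic livers, and 9 to 12 and 1 to 3 in the average. For the transgene it gave 0 to 1 fallen members in untreated livers (Cxcl1, without wild-type untreated replicate 2), 0 to 1 risen with LPS (without transgenic LPS replicate 2), and 0 to 1 risen and 0 to 1 fallen in the average. Directions of changes that had not passed also turned: after quantile normalization in wild-type livers for Ccl27a (-0.142), Cxcl10 (-0.268) and Cxcl14 (-0.102) and in the average for Cxcl10 (-0.056) and Cxcl12 (0.234), besides the passed average of Cxcl14 (-0.032). Leaving out 1 library at a time gave, in wild-type livers, -0.075 to 0.316 for Ccl27a and -0.448 to 0.243 for Cxcl11. In transgenic livers it gave -0.164 to 0.465 for Ccl9, -0.353 to 0.917 for Cxcl10 and -0.884 to 0.094 for Cxcl12. In the average it gave -0.281 to 0.034 for Ccl9, -0.106 to 0.529 for Cxcl10 and -0.299 to 0.190 for Cxcl12, where transgenic LPS replicate 1 turned Cxcl10 and Cxcl12 in both. With both untreated libraries numbered 1 left out, Cxcl12 was at 0.074 in the average and Ccl9 at -0.164 in transgenic livers. Other causes were not tested. Replicate numbers are not said to pair the mice, and deviations of same-numbered libraries correlated at 0.043 to 0.459 over genes. With a replicate block 9 members rose and 1 fell in wild-type livers, 9 and 2 did in transgenic livers and 12 and 2 in the average, and 0 were called for the transgene or the interaction.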
